A study of Mus musculus with 10 samples.

Results

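Photoresponse recovery is the set of reactions that returns a photoreceptor to its dark state after light. It was followed in mouse retina through 10 genes, Grk1, Rcvrn, Rgs9, Rgs9bp, Gnb5, Gucy2e, Gucy2f, Guca1a, Guca1b and Slc24a1, taken by gene name from a table of 35275 genes. All 10 were among the 17435 genes with enough reads to be tested. The set was chosen by pathway, but with the fold changes of this same comparison known, and was in that sense selected on them, so the differences between groups given here describe the libraries and serve as no independent support.

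The RNA came from whole retinas of C57BL/6 mice aged 10 to 12 weeks. The 5 vigabatrin libraries are from mice that received 140 mg/kg/day of vigabatrin by subcutaneous osmotic pump over 11 days, and the 5 control libraries carry the treatment label vehicle, although their titles call them untreated. Vigabatrin is an antiepileptic drug that irreversibly blocks GABA transaminase, and visual field loss is recognised among its adverse effects in patients. The labels give no genetic modification for either group, and do not say that each library is a separate mouse, so the spread between libraries may be partly technical.

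Each library is called by its group and its title number. Vehicle 832, 835, 1580 and 1582 carry low numbers, whereas vehicle 2345 and the vigabatrin libraries (2344, 2347, 2349, 2428 and 2429) are all numbered 2344 or above. What the numbers stand for is not given in the sources used here. Since vehicle 2345 is the only control in the upper range, number range and treatment can be told apart only through that 1 library.

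In the dark, cyclic GMP holds channels in the outer segment open, and calcium enters through them. Light activates a receptor, which through transducin and phosphodiesterase lowers cyclic GMP and closes the channels. Recovery needs the activated receptor to be phosphorylated and capped by arrestin, transducin to hydrolyse its GTP, and guanylate cyclase to remake cyclic GMP once falling calcium has been sensed. The genes fall into these roles: Grk1 (a receptor kinase) and Rcvrn (recoverin, its calcium-dependent inhibitor) act on the receptor. Rgs9, Gnb5 and Rgs9bp encode the complex that speeds GTP hydrolysis by transducin. Gucy2e and Gucy2f encode the retinal guanylate cyclases, Guca1a and Guca1b their calcium-sensing activators GCAP1 and GCAP2, and Slc24a1 the rod exchanger that carries calcium out of the outer segment.

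Total counts ranged from 36056135 to 54052502 per library, and each of the 10 genes had between 6033 and 132091 counts in every library. The 10 genes together took 1.02% to 1.17% of all counts. All 9 rod markers checked (among them Nrl and Gnat1) and all 6 cone markers were counted in every library. The summed cone markers spanned 937 to 1260 CPM (counts per 1000000 counts of the library, scaled by TMM) in vehicle and 1020 to 1140 CPM after vigabatrin. Of the rod markers 8 had lower means after vigabatrin, and Nrl, Nr2e3, Gnat1, Sag, Pde6b, Cnga1, Rom1 and Prph2 together spanned 26300 to 28500 CPM in vehicle and 24800 to 27300 CPM after it. The 4 markers of Müller glia summed to 3800 to 4470 and 3520 to 4030 CPM. The ranges of the groups overlapped for each of these 3 cell types, and their part in the results was not tested. A group of 4 libraries stands apart in carrying lens transcripts (8 markers, 1.15% to 1.73% of counts in vehicle 835 and 1582 and vigabatrin 2344 and 2429, against at most 0.0851% elsewhere). The 7 markers of retinal pigment epithelium summed to 705 CPM in vehicle 835 and to at most 247 CPM in any other library. In whole tissue, fewer photoreceptors and less RNA per photoreceptor cannot be told apart.

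The stretches of DNA around the start sites were searched for short motifs. The 10 genes were chosen for their role in photoreceptors, and no other photoreceptor genes were compared here. The motif shares below are therefore not independent of that choice. RefSeq promoter windows (build GRCm38.p6, the assembly that mm10 also names, 250 bases before to 50 after the start site) were matched for 7 of the 10 genes. Of these, 4 held TAATCC or its reverse complement GGATTA, the core recognised by the photoreceptor homeodomain factor CRX, against 7.06% of 32851 promoter windows of the same length. The 4 are printed because they comprise both a pair of genes whose level differed with title number (Guca1a and Gnb5) and a pair that did not follow it (Gucy2e and Gucy2f). Capitals mark the 6-base core.
Guca1a (chr17:47400557-47400856, minus strand): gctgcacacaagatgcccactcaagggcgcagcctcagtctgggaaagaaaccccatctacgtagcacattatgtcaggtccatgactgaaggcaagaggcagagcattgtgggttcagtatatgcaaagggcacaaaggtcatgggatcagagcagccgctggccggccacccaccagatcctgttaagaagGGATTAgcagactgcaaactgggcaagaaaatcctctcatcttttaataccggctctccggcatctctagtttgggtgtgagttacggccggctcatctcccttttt
Gnb5 (chr9:75306038-75306337, plus strand): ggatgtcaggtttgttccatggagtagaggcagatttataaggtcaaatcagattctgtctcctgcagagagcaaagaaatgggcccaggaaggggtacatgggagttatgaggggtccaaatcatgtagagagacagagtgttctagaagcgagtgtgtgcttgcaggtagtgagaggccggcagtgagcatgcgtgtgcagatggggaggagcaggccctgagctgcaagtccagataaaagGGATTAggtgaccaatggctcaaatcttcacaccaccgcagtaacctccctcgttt
Gucy2e (chr11:69236973-69237272, minus strand): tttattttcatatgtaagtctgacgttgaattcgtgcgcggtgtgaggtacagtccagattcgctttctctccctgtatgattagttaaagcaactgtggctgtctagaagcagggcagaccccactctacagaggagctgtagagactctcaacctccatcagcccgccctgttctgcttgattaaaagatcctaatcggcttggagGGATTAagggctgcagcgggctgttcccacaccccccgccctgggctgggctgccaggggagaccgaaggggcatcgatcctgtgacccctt
Gucy2f (chrX:142196887-142197186, minus strand): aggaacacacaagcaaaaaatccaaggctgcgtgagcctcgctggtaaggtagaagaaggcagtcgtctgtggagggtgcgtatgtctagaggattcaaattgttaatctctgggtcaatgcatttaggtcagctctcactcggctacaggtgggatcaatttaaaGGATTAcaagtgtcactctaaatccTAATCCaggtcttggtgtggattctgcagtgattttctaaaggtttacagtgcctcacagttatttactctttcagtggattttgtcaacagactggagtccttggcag
The core begins 57 bases before the start site in Guca1a, 6 before it in Gnb5, 42 before it in Gucy2e, and both 84 and 59 before it in Gucy2f. Guca1a, Gnb5 and Gucy2e hold it as GGATTA on the printed strand, and Gucy2f in both orientations. The start site of the Gnb5 window is base 75306288, where GENCODE M21 starts the gene. It lies 5107 bases upstream of the gene start in the deposited table. The windows of Grk1, Rgs9 and Slc24a1 do not hold these letters. Other short motifs were at 2 of 7 windows each: TGCTGA or TCAGCA, the half-site bound by the rod factor NRL, in Grk1 and Rgs9 (19.5% of all windows), GGGCGG or CCGCCC in Gucy2e and Rgs9 (35.7%), and TATAAA or TTTATA in Rgs9 and Gnb5 (13.6%). A match describes the letters and is not evidence of binding. The CRX core occurred both in Guca1a and Gnb5 and in Gucy2e and Gucy2f, which did not share their pattern across libraries.

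Levels can be compared between genes only per length, and CPM per kilobase of the deposited gene length was used. The calcium sensors were the most abundant of the 10 in vehicle retina. Guca1b stood at 888 ± 59.2, Guca1a at 824 ± 102 and Rcvrn at 765 ± 63.9 CPM per kilobase (SD, n = 5 each), neighbours whose SD intervals overlap from one to the next. Gnb5 followed at 562 ± 62.8, Slc24a1 at 376 ± 30.2 and Grk1 at 315 ± 34.1, of which Slc24a1 and Grk1 overlap. Rgs9bp had 203 ± 6.95, Rgs9 168 ± 23.4 and Gucy2e 130 ± 18.4, of which Rgs9 and Gucy2e overlap. Gucy2f, the second retinal cyclase, was lowest at 19.5 ± 1.88 CPM per kilobase.

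Gucy2e thus exceeded Gucy2f per length by a factor of 6.69 ± 0.782 in the vehicle group and 6.61 ± 0.526 in the vigabatrin group (SD, n = 5 each), with ranges of 5.75 to 7.85 and 5.98 to 7.40 that overlap. Within the RGS9 complex, Rgs9 stood at 0.829 ± 0.126 of its anchor Rgs9bp in vehicle and 0.753 ± 0.117 after vigabatrin, and with the GENCODE M21 lengths at 0.449 ± 0.0683 and 0.408 ± 0.0634. The order depends on the gene model for 1 gene above all: the deposited length of Gnb5 is 1188 bases, against 3115 bases for the union of its exons in GENCODE M21. With that length Gnb5 would be at 214 CPM per kilobase and move from the 4th to the 6th place. Guca1b would be at 607 and Rgs9 at 91.1 (lengths of 2441 and 6390 in place of 1668 and 3464 bases), and Guca1a, Rcvrn and Guca1b would still be the highest 3. This alternative was chosen after seeing the data. Fold changes between groups do not use the length.

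**Figure D1:**
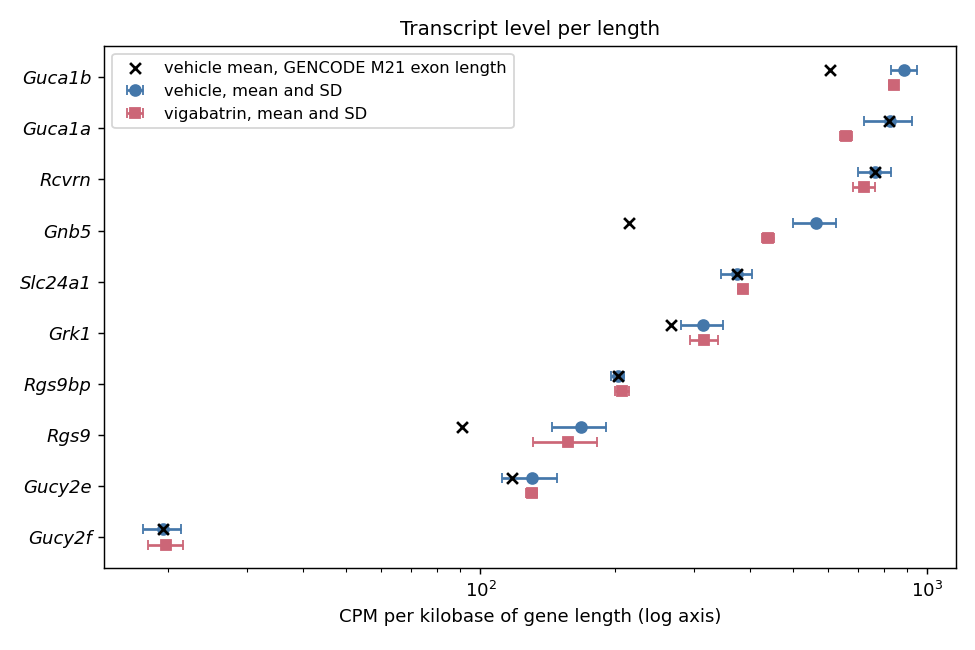
Transcript level of each gene in CPM per kilobase on a log axis, with the mean and SD of 5 vehicle libraries (circles) and 5 vigabatrin libraries (squares); crosses give the vehicle mean with the GENCODE M21 exon length. Guca1b, Guca1a and Rcvrn are highest and Gucy2f is lowest, and only Gnb5, Guca1b, Rgs9, Grk1 and Gucy2e have crosses visibly left of their circles.

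Compared between groups, 5 of the 10 genes had lower and 4 had higher means after vigabatrin, and Gucy2e was at 0.00 on the log2 scale. Over all genes tested 50.4% were lower. The median log2 fold change of the 10 was -0.04, beside -0.001 for all genes tested. None of the 10 passed an adjusted p of 0.05 in edgeR's quasi-likelihood test (0 of 10), where 0.00574% of all genes did. At an unadjusted p under 0.05 the number was 2 of 10, Gnb5 and Guca1a, where 7.36% of all genes passed. DESeq2's Wald test called the same 2 genes, with 0.564% of all genes called, and limma-voom with quality weights called 0, with 0.0172% called. Nothing is read from these counts, because the genes were picked with this contrast known.

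The 2 genes that stood out were a regulator of transducin shut-off and a cyclase activator. Gnb5 encodes the G beta subunit that stabilises RGS9 and the other R7 RGS proteins, and occupies bases 75311395 to 75344964 of chromosome 9 (plus strand, mm10). It measured 697, 755, 675, 661 and 551 CPM in vehicle 832, 835, 1580, 1582 and 2345. After vigabatrin it measured 519, 529, 513, 547 and 507 CPM in 2344, 2347, 2349, 2428 and 2429. All 5 vigabatrin libraries lay below all 5 vehicle libraries, a separation found in the lower direction for 0.631% of genes, but vehicle 2345 (551 CPM) was close to the highest vigabatrin library (547 CPM). The means were 668 ± 74.6 and 523 ± 15.8 CPM (SD, n = 5 each), with a log2 fold change of -0.35 and a standard error of 0.07.

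Guca1a encodes GCAP1, which activates the cyclases when calcium falls, and occupies bases 47394560 to 47400584 of chromosome 17 (minus strand). It measured 723, 834, 725, 722 and 584 CPM in vehicle 832, 835, 1580, 1582 and 2345. After vigabatrin it measured 553, 588, 575, 589 and 558 CPM in 2344, 2347, 2349, 2428 and 2429. Here the groups overlapped, since vehicle 2345 fell inside the vigabatrin range. The means were 717 ± 88.9 and 573 ± 16.8 CPM (SD, n = 5 each), with a log2 fold change of -0.33 and a standard error of 0.08.

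For both genes the libraries also divided by title number range. All 4 vehicle libraries of low number were above the other 6 libraries for Gnb5 and for Guca1a, a pattern shown by 2 of the 10 genes and by 2.25% of all genes tested (392). In vehicle 2345 the log2 CPM of Guca1a was lower than the mean of the other vehicle libraries (log2 difference -0.36), and the vigabatrin mean was lower than it by a similar amount (-0.39). For Gnb5 these differences were -0.34 and -0.41. Between the vigabatrin mean and vehicle 2345 a log2 difference of -0.03 remained for Guca1a and -0.08 for Gnb5. With the number range as a term in the fit, the log2 fold changes were -0.03 (SE 0.08) for Guca1a and -0.08 (SE 0.08) for Gnb5. Without vehicle 2345 they were -0.39 and -0.42, and both passed the threshold in edgeR's quasi-likelihood test (adjusted p of 0.0306 and 0.0164, from 0.402 and 0.311 with all libraries). In that fit 39 of 17620 genes were called (0.221%), against 1 gene with all libraries. Over all alternatives the adjusted p ranged from 0.00984 to 1 for Guca1a and from 0.000727 to 1 for Gnb5. Treatment and number range therefore cannot be told apart for these genes beyond what 1 vehicle library shows.

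**Figure D2:**
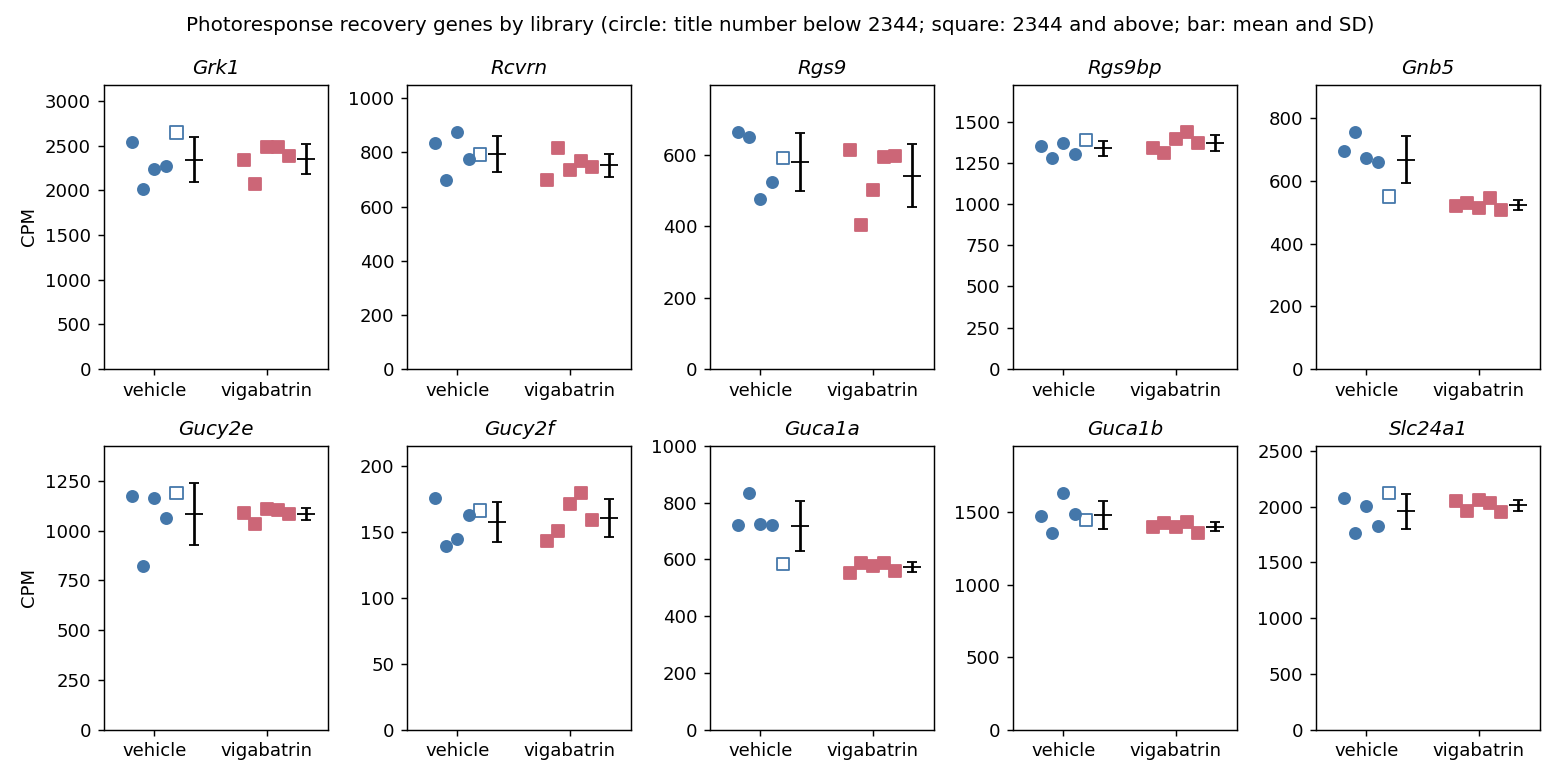
CPM of the 10 genes in each library, vehicle on the left and vigabatrin on the right of each panel, with the group mean and SD (bar); circles are libraries with title numbers below 2344 and squares those at 2344 or above. The open square, vehicle 2345, lies beside the vigabatrin libraries for Gnb5 (551 CPM) and Guca1a (584 CPM). It is the highest of the vehicle group for Grk1, Gucy2e, Slc24a1 and Rgs9bp.

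Both differences kept their direction, with smaller values, in fits that took carried-over lens and pigment epithelium into account. With lens and pigment epithelium levels as terms, Gnb5 measured -0.31 and Guca1a -0.28 on the log2 scale. Without the 4 lens-rich libraries they measured -0.28 and -0.21, and without vehicle 832 and 835, an alternative chosen after seeing the data, -0.27 and -0.24. Gnb5 is also used by ON bipolar cells, whose 6 markers summed to 1290 to 1380 CPM in vehicle and 1270 to 1390 CPM after vigabatrin, ranges that overlap. Of the 6 R7 RGS genes and anchors fixed as a list (Rgs6, Rgs7, Rgs11, Rgs7bp, Gpr158 and Gpr179), 4 had higher and 2 lower means, 0 were called and the median was 0.07. Of these, Rgs7bp had a log2 fold change of 0.13 (SE 0.07), Gpr158 0.12 (SE 0.06), Rgs6 0.08 (SE 0.05) and Rgs11, a partner of Gnb5 in ON bipolar cells, -0.11 (SE 0.08). With the number range as a term Rgs7bp measured 0.02, Gpr158 0.08, Rgs6 -0.08 and Rgs11 0.05.

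Rgs9, the GTPase-activating protein of the complex, occupies bases 109225355 to 109298129 of chromosome 11 (minus strand) and varied most within the vigabatrin group. It measured 664, 652, 477, 524 and 592 CPM in vehicle 832, 835, 1580, 1582 and 2345. After vigabatrin it measured 615, 404, 502, 594 and 599 CPM in 2344, 2347, 2349, 2428 and 2429. High and low libraries occurred in both groups and in both number ranges. The means were 582 ± 81.0 and 543 ± 89.3 CPM, with a log2 fold change of -0.10 (SE 0.13), and without vehicle 832 and 835 it was 0.03. Rgs9bp, the membrane anchor, on chromosome 7 from 35578993 to 35585582, spanned 1278 to 1387 CPM in vehicle and 1308 to 1435 CPM after vigabatrin. Its coefficient of variation was 3.43% in vehicle, the lowest of the 10 genes, and 3.64% after vigabatrin, where Guca1b, Slc24a1, Gucy2e, Guca1a and Gnb5 had lower ones (2.23% to 3.03%). The corresponding coefficient for Rgs9 was 13.9% and 16.4%. The log2 fold change of Rgs9bp was 0.03 (SE 0.04).

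The means of both cyclases differed between groups by less than the spread between libraries. Gucy2e, on chromosome 11 from 69218117 to 69237036, measured 1175, 824, 1166, 1064 and 1189 CPM in vehicle 832, 835, 1580, 1582 and 2345. After vigabatrin it measured 1089, 1033, 1109, 1103 and 1084 CPM in 2344, 2347, 2349, 2428 and 2429. The vigabatrin libraries lay close together inside the vehicle range, and vehicle 835 was the lowest of all. Both means were 1084 CPM (SD 153 and 30.1), with a log2 fold change of 0.00 (SE 0.09). Vehicle 835 was at the same time the highest library for Gnb5 and Guca1a. Its mean log2 CPM over 9 genes of the rod activation cascade was 11.34. Vigabatrin 2344 (11.35) and 2429 (11.33) were at a similar level, with Gucy2e at 1089 and 1084 CPM. Vehicle 835 differed from them in group, in title number range and in several markers. Pigment epithelium markers summed to 705 CPM, against 247 and 46.1 CPM, and cone markers to 937 CPM, against 1016 and 1111 CPM. Müller glia markers summed to 4470 CPM in vehicle 835, against at most 4030 CPM in any vigabatrin library. For amacrine cell markers these values were 889 and 851 CPM. Why Gucy2e was low in vehicle 835 was not tested. Gucy2f, on chromosome X from 142081160 to 142196931, spanned 140 to 176 CPM in vehicle and 144 to 180 CPM after vigabatrin, with a log2 fold change of 0.03 (SE 0.08).

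Guca1b, which encodes GCAP2, neighbours Guca1a on chromosome 17 (47385393 to 47392967, plus strand), with 1592 bases between the genes. Its behaviour differed from that of its neighbour. It spanned 1360 to 1633 CPM in vehicle, with vehicle 2345 at 1448, and 1354 to 1434 CPM after vigabatrin, so that the groups overlapped (log2 fold change -0.08, SE 0.05). Per length, Guca1a stood at 0.933 ± 0.151 of Guca1b in the vehicle group and 0.782 ± 0.0146 in the vigabatrin group (SD, n = 5 each). The 4 vehicle libraries of low number had ratios of 0.85 to 1.17, whereas vehicle 2345 had 0.772, within the vigabatrin range of 0.756 to 0.791. With the GENCODE M21 lengths the ratio was 1.36 ± 0.22 in vehicle and 1.14 ± 0.0214 after vigabatrin, so which of the 2 is more abundant depends on the gene model.

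At the receptor, Grk1 (chromosome 8, 13405081 to 13421945) spanned 2013 to 2649 CPM in vehicle and 2068 to 2484 CPM after vigabatrin, with vehicle 2345 the highest of all. Its log2 fold change was 0.01 (SE 0.08), and -0.17 (SE 0.12) with the number range as a term. Rcvrn (chromosome 11, 67695326 to 67703333) spanned 698 to 875 CPM in vehicle and 698 to 816 CPM after vigabatrin, with a log2 fold change of -0.08 (SE 0.06). Rcvrn lies within Glp2r on the opposite strand, which had 7720 to 18000 counts, and without a stated strand setting reads of the 2 genes cannot be told apart. Slc24a1 (chromosome 9, 64922861 to 64951607) spanned 1759 to 2121 CPM in vehicle and 1954 to 2062 CPM after vigabatrin, with a log2 fold change of 0.04 (SE 0.05). For all 3 genes the vigabatrin range overlapped the vehicle range, and for Slc24a1 it lay inside it.

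**Figure D3:**
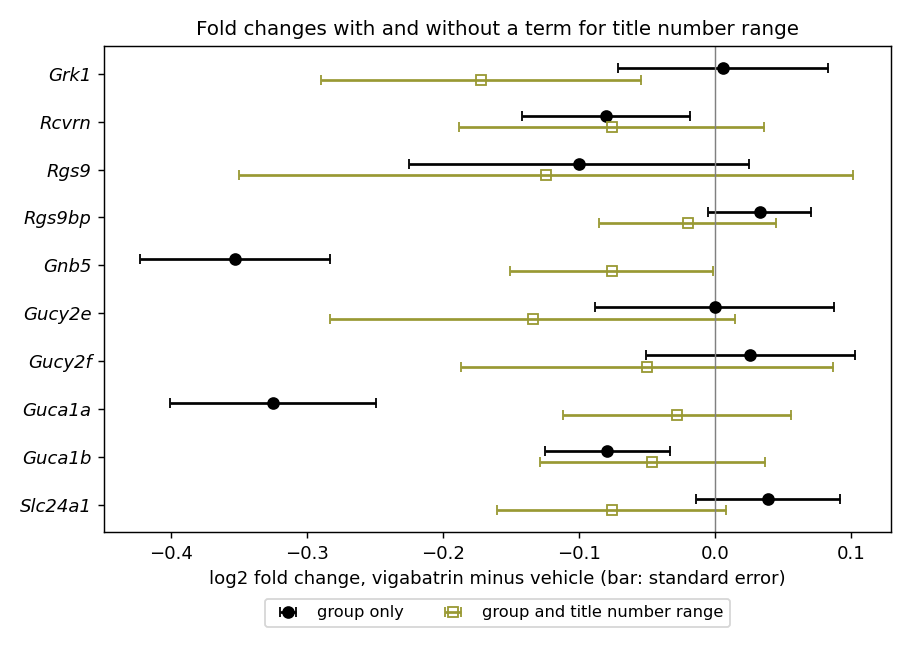
Log2 fold change of each gene, vigabatrin minus vehicle, with its standard error, from the fit with group only (filled circles) and with title number range added (open squares). Gnb5 and Guca1a move from -0.35 and -0.33 to -0.08 and -0.03, and all 10 open squares are below 0.

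With the number range in the fit all 10 genes had negative log2 fold changes, from -0.17 for Grk1 to -0.02 for Rgs9bp, with a median of -0.08 beside 0.01 for all genes tested. These 10 values share vehicle 2345 as their only control within the upper range, so they rest on how that library compares with the vigabatrin libraries and not on 10 separate comparisons. In CPM, vehicle 2345 was above all 5 vigabatrin libraries for Guca1b, Gucy2e, Grk1, Gnb5 and Slc24a1, and above 2 to 4 of them for the others.

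**Figure D4:**
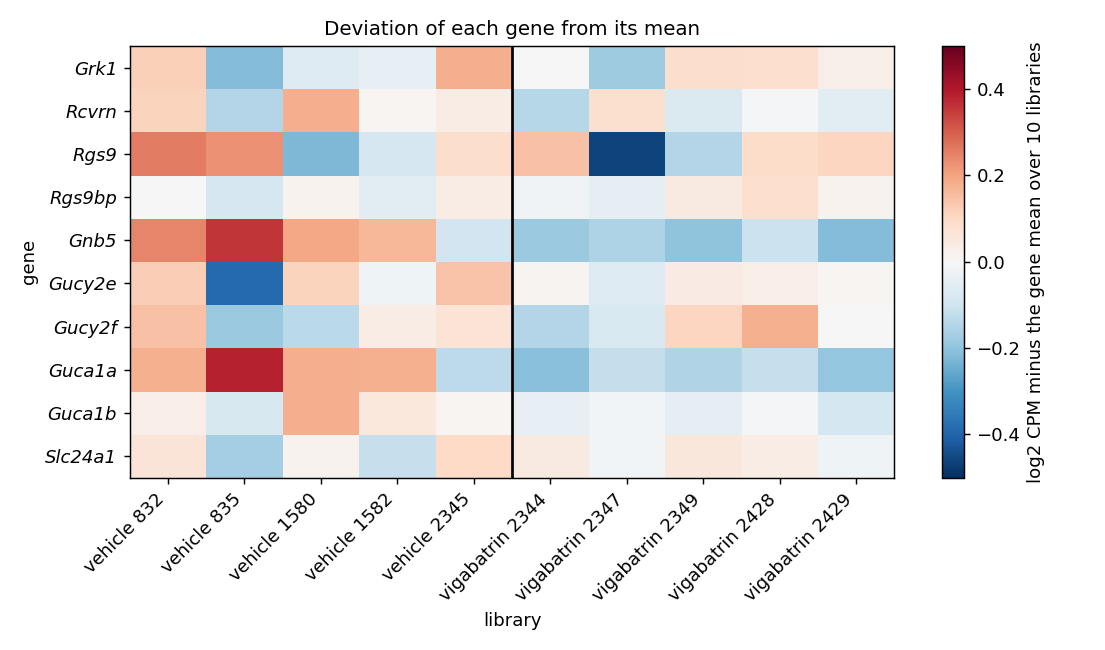
Log2 CPM of each gene minus its mean over the 10 libraries, with genes in rows and libraries in columns (red higher, blue lower; the line divides vehicle from vigabatrin). Gnb5 and Guca1a are red in the 4 vehicle libraries of low title number and blue in the other 6, Gucy2e is lowest in vehicle 835, and Rgs9 is lowest in vigabatrin 2347.

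Within groups the genes did not vary as one set. Correlations of log2 CPM, after subtraction of each group's mean, were computed for the 45 pairs over the 10 libraries and are given as a description, since the values of a library share its depth and tissue content. They ran from -0.73 to 0.97. Guca1a and Gnb5 had the highest (r = 0.97), and none of the 13312 other genes with a mean of at least 1 CPM came closer to either of them (0 and 0 candidates). The r of this pair was 0.96 without vehicle 835 and 0.88 without vehicle 2345. For both genes these were the highest and the lowest vehicle library. They were left out singly and not together, so either may carry the value when the other is left out. Grk1, Rgs9bp, Gucy2e and Slc24a1 varied together, with r of 0.81 for Grk1 and Rgs9bp, 0.80 for Grk1 and Slc24a1, 0.78 for Grk1 and Gucy2e, and 0.87 for Gucy2e and Slc24a1. Guca1a varied against them, at -0.73 with Gucy2e, -0.73 with Slc24a1 and -0.725 with Grk1, and at -0.51 with Rgs9bp. Without vehicle 835 these became -0.41, -0.50, -0.53 and -0.26, and without vehicle 2345 they were -0.87, -0.61, -0.6 and -0.32. Rcvrn and Guca1b formed a further pair at 0.78, and Rgs9 had r of 0.17 with its anchor Rgs9bp and 0.12 with Gnb5. Without vehicle 835 these values for Rgs9 were 0.39 and -0.08, and without vehicle 2345 they were 0.16 and 0.35.

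**Figure D5:**
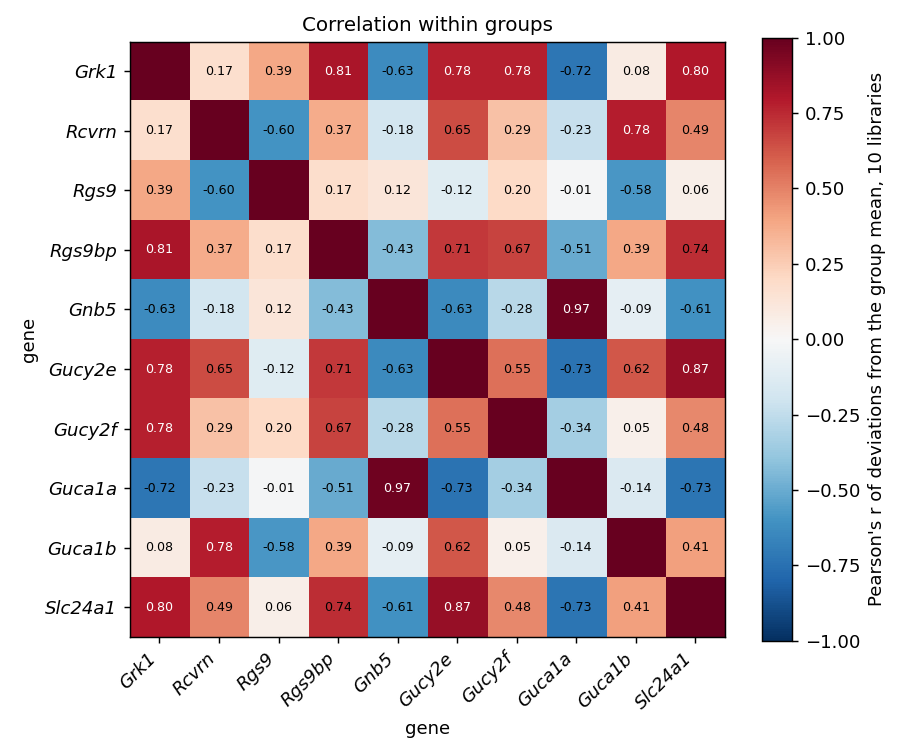
Pearson's r between genes of log2 CPM deviations from the group mean over 10 libraries, printed in each cell and coloured from -1 (blue) to 1 (red). The cell of Guca1a and Gnb5 (0.97) is the deepest red, and the same 2 genes are blue against Gucy2e, Grk1 and Slc24a1.

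Outside the 10, the genes of most similar within-group pattern were Ammecr1 for Guca1a (r = 0.969) and Paqr5, Rmdn3 and Mrps26, the last a mitochondrial ribosomal protein gene, for Gnb5 (0.959, 0.951 and 0.948). Rcvrn was closest to Pde6g, the inhibitory subunit of the rod phosphodiesterase (0.976). The others were Mon1a for Gucy2e (0.994), Scn3a, a sodium channel gene, for Gucy2f (0.991), Mrs2 for Rgs9 (0.990), Pcdh17, a protocadherin gene, for Grk1 (0.979), Tmem261 for Guca1b (0.976), Zfp251 for Slc24a1 (0.974) and Snx11 for Rgs9bp (0.960). The gene named, for Gnb5 the first of the 3, was in each case the highest of 13312 genes over only 10 libraries.

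None of the wider pathway passed the edgeR test. Of 13 other genes of recovery, cyclic GMP supply and calcium handling, 6 had higher and 7 lower means, 0 were called, and the median was -0.07. Sag, the rod arrestin that caps the phosphorylated receptor, had the smallest p: 3969 CPM in vehicle and 3433 CPM after vigabatrin, a log2 fold change of -0.21 (SE 0.04). Vehicle 2345 was at 3728 CPM for Sag, between the 4030 CPM of the other vehicle libraries and the vigabatrin mean, and with the number range as a term the log2 fold change was -0.12. Guk1, guanylate kinase in the resynthesis of GTP, had -0.14 (SE 0.05), Unc119, a transducin chaperone, -0.09 (SE 0.04), and Slc24a2, the cone exchanger, 0.17 (SE 0.06). With the number range as a term Guk1 measured -0.05, Unc119 -0.11 and Slc24a2 0.07.

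Of the 9 genes of the rod activation cascade, which recovery opposes, 7 had lower means, 1 a higher mean and 1 a log2 fold change of 0.00, 0 were called and the median was -0.08. Pde6a, Pde6b and the channel genes Cnga1 and Cngb1 each had -0.08 (SE of 0.04), and with the number range as a term Pde6b had -0.01 and Cngb1 -0.13. The cone cascade had 4 higher and 5 lower of 9 (median -0.02), including Gnb3 at -0.06 and Pde6c at 0.04 (-0.11 and 0.14 with the number range as a term). When libraries were scaled to the rod cascade in place of all genes, the median of the 10 recovery genes was 0.02.

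Relatives of the 10 in their own gene families were also followed from fixed lists. Of 10 other neuronal calcium sensor genes, the family of recoverin and the GCAPs, 7 were higher and 3 lower with 0 called. Hpcal1 had a log2 fold change of -0.24 (SE 0.05), which became -0.09 with the number range as a term, and Kcnip2 0.16 (SE 0.07). Of 8 other guanylate cyclase genes 6 were tested, 4 higher and 2 lower, among them Gucy1a3, a soluble cyclase subunit, at 0.20 (SE 0.07) and the scarce Gucy2g at 0.53 (SE 0.14, 1.24 and 1.79 CPM), with 0 called. With the number range as a term these were 0.05 and 0.16. Of 4 other G beta genes, 1 was higher, Gnb1 at 0.05 (SE 0.06; -0.11 with the number range as a term), and 3 were lower with 0 called, among them Gnb3 at -0.06. Of 5 other receptor kinase genes 2 were higher and 3 lower with 0 called, including Adrbk2 at -0.13 (SE 0.05) and Grk4 at 0.15 (SE 0.09), which became -0.03 and 0.05 with the number range as a term. Over the pathway lists, edgeR's quasi-likelihood test gave an unadjusted p under 0.05 for 3 of the 13 wider recovery genes, 2 calcium sensor genes, 2 cyclase genes, 1 receptor kinase gene and 0 genes of the rod, cone, R7 RGS and G beta lists, where 7.36% of all genes passed. DESeq2 called 1 gene each of the wider recovery and calcium sensor lists, Sag and Hpcal1, and 0 of the others (0.564% of all genes), and limma-voom called 0 in every list (0.0172% of all genes).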

How the data were processed

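The authors deposited 1 table of raw read counts per Ensembl gene. The submitters' processing notes name HTSeq 0.6.1, build mm10, edgeR 3.16.5 and DESeq2. No source used here gives the aligner, the annotation release or the strand setting. A further count column (1) fits no sample label and was left out. The gene lengths that the authors deposited in that table served only levels per kilobase.

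Genes passing filterByExpr (17435) entered edgeR 4.0.16 in R 4.3.3, with TMM scaling, a quasi-likelihood fit (glmQLFit, glmQLFTest) on group alone and Benjamini-Hochberg adjustment at 0.05. Standard errors are the log2 fold change over the square root of F (median 0.09). Log2 CPM used a prior count of 2. The test was checked on simulated counts with known changes. The members, lists and tests were chosen with earlier results of these data known. All 10 members are named, as are the 2 genes of smallest p per list (4 for the wider recovery genes, the rod cascade and the R7 RGS list), and the like genes leave out predicted genes and pseudogenes. Between libraries of a group, chi-square per degree of freedom was 8.54 to 143, above sampling noise, so no pair was merged; whether 2 libraries come from 1 mouse cannot be seen from it. Alternatives covered normalization, filters, DESeq2 1.42.0, limma-voom (limma 3.58.1), number range, carried-over tissue and left-out libraries. Promoters are RefSeq's and exon lengths GENCODE M21's. Some list results are not reported here.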

Additional observations from a re-analysis of the deposited data

How the results depend on the processing

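No paired analysis was possible because no title number occurs in both groups. Of 22 alternatives, 1 of them added after seeing the data, Gnb5, Guca1a, Guca1b and Rcvrn kept lower means in all 22, with log2 fold changes between -0.417 and -0.076 for Gnb5 and between -0.392 and -0.028 for Guca1a. The number of genes called over all genes was 1 in the main analysis, 0 with library size only, without a filter, with the number range as a term, with lens and pigment epithelium as terms, with the lens-rich libraries left out and with vehicle 832 and 835 left out, 3 with limma-voom, 85 with DESeq2, and 0 to 39 on leaving out 1 library, the 39 without vehicle 2345. Of the 10 members, 2 were called by DESeq2 and 0 to 2 on leaving out 1 library, the 2 without vehicle 2345. The members' median log2 fold change was -0.04, 0.019 when scaled to the rod cascade, -0.104 without the lens-rich libraries and -0.07 to 0.003 on leaving out 1 library. The count of members with lower means, 5 with all libraries, was 10 with the number range as a term and 8 with lens and pigment epithelium as terms, without the lens-rich libraries, without vehicle 835 and without vigabatrin 2428.

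Directions turned for genes near 0. With the number range as a term Gucy2f measured -0.05, Grk1 -0.172, Rgs9bp -0.02, Slc24a1 -0.076, Rgs6 -0.077, Rgs11 0.051 and Gnb1 -0.114. With lens and pigment epithelium as terms Gucy2f measured -0.02 and Grk1 -0.045, and without the lens-rich libraries Grk1 measured -0.077 and Slc24a1 -0.034. Grk1 measured -0.022 with limma-voom and -0.021 without vehicle 832 and 835, where Rgs9 measured 0.033. On leaving out 1 library Grk1 ranged from -0.044 to 0.053 and Gucy2f from -0.017 to 0.064. Gucy2e, at 0.00, has no direction to keep and ranged from -0.134 to 0.061. The causes of these changes were not tested. Depth did not limit the detection of the members, which had at least 6033 counts in every library.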
